A study of Mus musculus with 8 samples.

Results

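The interferon regulatory factors are a family of transcription factors, and 8 of their genes, Irf1, Irf2, Irf3, Irf4, Irf5, Irf7, Irf8 and Irf9, were followed by gene symbol through 8 RNA-sequencing libraries of sorted mouse bone marrow. They are 8 of the 20207 genes in the deposited tables, and all 8 passed the filter used for testing, a total above 1 RPKM (read density scaled to gene length and to mapped reads) over the libraries, as did 12561 genes in all.

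The libraries came from mice with chronic myeloid leukaemia (CML) and from healthy mice, which the study used to ask how CML stem cells differ from normal haematopoietic stem cells (HSCs). The KLS+ compartment (cKit+, lineage-negative, Sca-1+) was gated on CD48- and CD135- and split by CD150 into long-term (LT, CD150+) and short-term (ST, CD150-) fractions. Sca-1- counterparts (KLS-) were taken as committed progenitors. The healthy group held LT-HSC 1 from mice of 2 months, LT-HSC 2 from mice of 6 months, and 1 library each of ST-HSC and normal KLS- cells from mice of 2 months. The CML group held LT-CML 1, LT-CML 2, ST-CML and CML-KLS-, with no age in the labels. The study describes the diseased animals as Tal1-tTA+TRE-BCR-ABL1+ mice, in which doxycycline withdrawal switches on the BCR-ABL1 oncogene in cells where the Tal1 promoter drives the tTA activator, so the disease is that of 1 tet-inducible transgenic model. It describes the controls as Tal1-tTA+ littermates on an FVB/N background, whereas the labels give C57BL/6 as the strain of every library. For cell sorting the study states the same age range, in weeks, for CML and control mice, both after doxycycline withdrawal. The 6 months of LT-HSC 2 lie outside that range. Only the LT populations had a second library, and nothing says whether the libraries came from separate or pooled animals, so the p-values measure the spread between these libraries.

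Interferon regulatory factors bind GAAA repeats in the control regions of interferon genes and of the genes that interferons switch on. Irf3, Irf5 and Irf7 are switched on by sensors of viral and microbial nucleic acids, Irf9 is the DNA-binding subunit of the complex that a type I interferon signal assembles, and Irf1 and Irf2 act on overlapping sites as activator and repressor. Irf4 and Irf8 bind with partners such as PU.1 and guide blood lineages, and loss of Irf8 in mice is known for a disease that resembles CML.

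A set of 3 upstream stretches of 120 bases are shown because they hold letters that link members to interferon signalling. The windows searched were the 250 bases before each RefSeq start site (table on GRCm38.p6, each located on mm9 by 1 exact match), for the ISRE core GAAANNGAAA and the GAS element TTCNNNGAA on both strands. A GAS reads the same way on both strands and was counted once. Capitals mark the matches, and all 3 stretches are given 5′ to 3′ on the plus strand of mm9.
Irf1 (chr11:53583370-53583489): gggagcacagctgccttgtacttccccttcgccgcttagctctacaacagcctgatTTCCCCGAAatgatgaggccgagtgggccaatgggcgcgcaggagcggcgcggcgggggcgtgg
Irf2 (chr8:47824849-47824968): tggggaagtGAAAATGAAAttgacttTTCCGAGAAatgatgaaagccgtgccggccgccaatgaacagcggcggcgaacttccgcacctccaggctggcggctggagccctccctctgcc
Irf8 (chr8:123260040-123260159): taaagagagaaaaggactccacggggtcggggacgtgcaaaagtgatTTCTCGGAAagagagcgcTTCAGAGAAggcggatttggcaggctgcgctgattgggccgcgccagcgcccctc
Irf1 held 1 GAS that began 90 bases before the start, Irf8 held a pair that began at 171 and 153 bases, and Irf2 held an ISRE core at 241 bases and a GAS at 224 bases. Of 32536 such windows over all genes, 7.04% held a GAS and 2.98% an ISRE core. The windows of Irf3, Irf4, Irf5, Irf7 and Irf9, and the second start sites of Irf1 and Irf8, held neither set of letters. A match is a description of the sequence and not evidence of binding.

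The depth of the libraries, estimated from the steps between low RPKM values and the combined GENCODE exon lengths of genes, was 17.8M to 23.9M reads. Between 13932 and 15872 genes were above 0. Sorting genes followed the gates in part. Ly6a (Sca-1) was at 72.4 to 152 RPKM in the KLS+ libraries and at 8.16 and 11.7 RPKM in the KLS- libraries. Slamf1 (CD150) was at 10.7 to 35.5 RPKM in LT and 0.955 to 2.87 RPKM elsewhere. Flt3 (CD135), which the gates excluded, was at 61.6 RPKM in ST-HSC and 71.6 RPKM in ST-CML. LT-HSC 2 was the highest library in 9 neutrophil genes, whose RPKM summed to 4114 there against 519.8 in LT-HSC 1 and 16.2 in ST-HSC. The same genes summed to 241 in LT-CML 1, 1054 in LT-CML 2 and 419 in ST-CML. They summed to 127 in normal KLS- and 657 in CML-KLS-. LT-CML 2 and ST-CML carried 2102 and 1386 RPKM of 9 granulocyte-monocyte progenitor genes, against 117 in LT-CML 1 and 135 to 292 in the normal HSC libraries. Hba-a1 was listed at 0 in every library, so an exact 0 in these files need not mean absence.

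Irf1, Irf2 and Irf9 were the most abundant members in every KLS+ library, and Irf8 was the most abundant member in both KLS- libraries. The RPKM of the members summed to 108 to 208 in the 6 KLS+ libraries and to 108 and 89.6 in normal KLS- and CML-KLS-. Irf8 made up 0.526% to 1.31% of that sum in the KLS+ libraries, 35.1% in normal KLS- and 32.0% in CML-KLS-. Irf4 was the lowest member in every library.

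**Figure D1:**
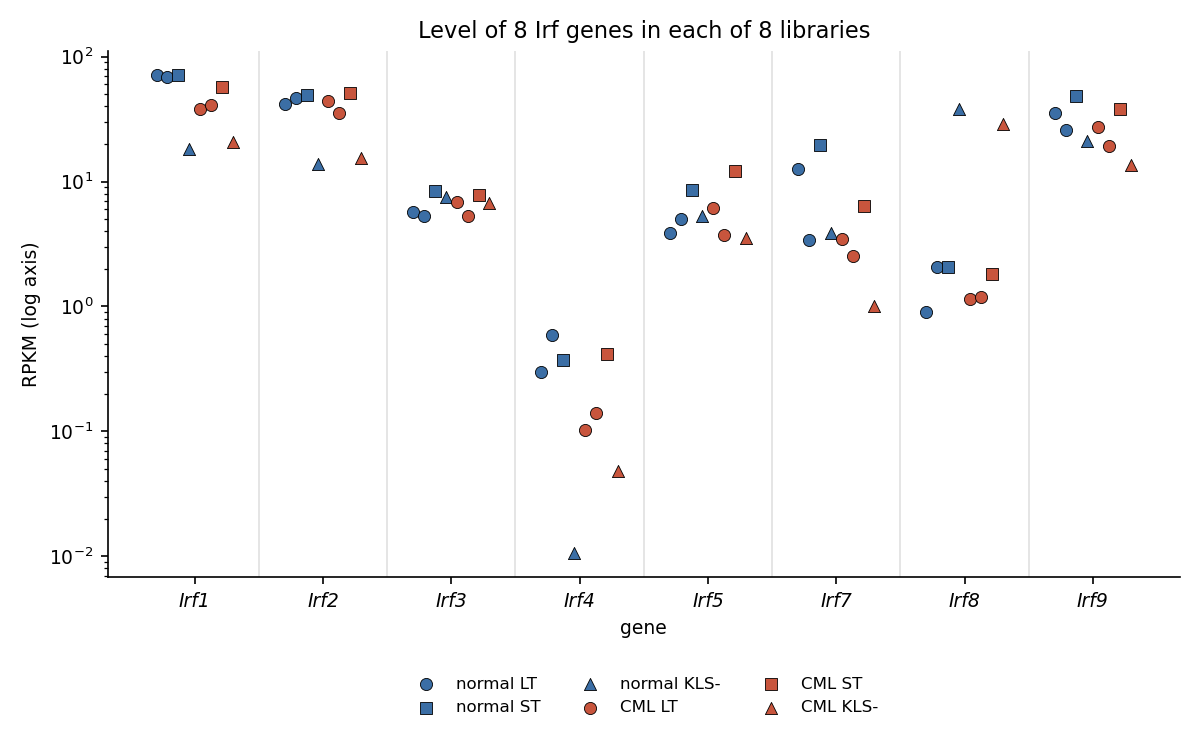
Level of each member in each library in RPKM on a log axis, blue for normal and red for CML, with circles for LT, squares for ST and triangles for KLS- cells. Irf8 is the member whose triangles, 37.7 and 28.7 RPKM, lie above its circles and squares, which reach 2.07 RPKM.

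Irf8, the factor that steers progenitors towards monocytes and dendritic cells and away from neutrophils, separated KLS- cells from stem cells in health and in disease. The gene lies at chr8:123260258-123280594 on the plus strand (mm9) and has 9 exons in its longest coding transcript. Its level was 0.904 RPKM in LT-HSC 1, 2.06 RPKM in LT-HSC 2, 2.07 RPKM in ST-HSC and 37.7 RPKM in normal KLS- cells. It was 1.15 RPKM in LT-CML 1, 1.19 RPKM in LT-CML 2, 1.82 RPKM in ST-CML and 28.7 RPKM in CML-KLS- cells. Both KLS- libraries were far above all 6 stem cell libraries, and the stem cell libraries of CML and normal mice overlapped.

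The mean of Irf8 was 33.2 ± 6.41 RPKM (SD, n = 2) in KLS- cells and 1.53 ± 0.513 RPKM (SD, n = 6) in stem cells, a ratio of 21.7. On the log2(RPKM + 1) scale, which understates changes of low genes, KLS- cells exceeded the mean of LT and ST cells by 3.71 (SE 0.19) with disease as a covariate, and the adjusted p from limma was 7.88e-06. The KLS- to stem cell ratio was 22.5 in normal cells and 20.7 in CML cells. The difference of CML from normal in KLS- cells minus that in stem cells was -0.24 (SE 0.38, 95% interval -1.12 to 0.64) on the log2(RPKM + 1) scale, with a limma adjusted p of 0.9996. In bulk samples, fewer cells of a type and less RNA per cell cannot be told apart. The 10 monocyte genes listed summed to 344 RPKM in normal KLS- and 448 RPKM in CML-KLS- cells against 21.9 to 56.2 RPKM in stem cells. Of the 10, 1 was at 0 in CML-KLS- and all were above 0 in the other libraries. The rise was not limited to monocyte genes. In the same order, 9 granulocyte-monocyte progenitor genes summed to 10956 and 17033 RPKM against 117 to 2102 RPKM. Basophil and mast cell genes summed to 181 and 154 RPKM against 31.8 to 66.3 RPKM. Dendritic cell genes were lower, at 18.3 and 23.7 RPKM against 28.0 to 112 RPKM. The part of these lists in the Irf8 difference was not tested.

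Within stem cells Irf8 showed no difference between CML and normal beyond the spread. The difference between CML stem cells and normal HSCs was -0.15 (SE 0.22, 95% interval -0.66 to 0.37) on the log2(RPKM + 1) scale, and limma gave an adjusted p of 0.853. Irf8 was at 1.15 RPKM in LT-CML 1 and at 1.19 RPKM in LT-CML 2. The granulocyte-monocyte progenitor genes differed widely between these libraries, and their part in the Irf8 level was not tested. The Irf8 levels in stem cells were small, with an estimated 51 to 140 reads per stem cell library and a counting error of 8.45% to 14.0%. CML-KLS- cells held 0.760 times the Irf8 RPKM of normal KLS- cells, 1 library against 1, a difference that was not tested by itself.

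Over the 8 libraries, the genes whose log2(RPKM + 1) followed Irf8 most closely were Slc22a4 (Pearson r = 0.994), Idh1 (r = 0.990), Csf1r (r = 0.990), Spon2 (r = 0.989) and Ccr2 (r = 0.981), among 685 tested genes with a mean of at least 1 RPKM and enough spread. These correlations rest mainly on 2 KLS- libraries against 6 others. Csf1r, the receptor that monocytes need, was at 0.0748 to 1.21 RPKM in stem cells and at 18.2 and 16.9 RPKM in normal and CML KLS- cells. Ccr2, a chemokine receptor of monocytes, was at 0.592 to 3.09 RPKM in stem cells and at 25.6 and 19.3 RPKM in KLS- cells.

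**Figure D2:**
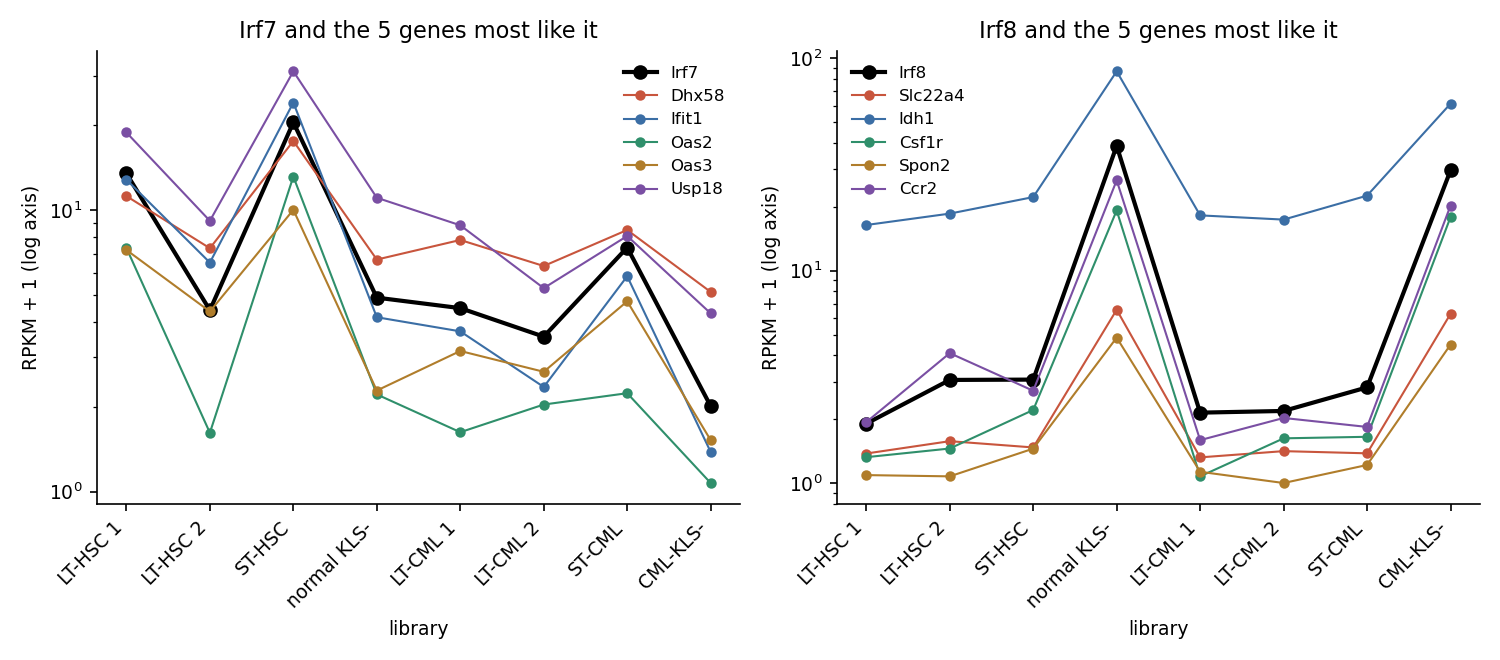
RPKM + 1 on a log axis in the 8 libraries for Irf7 (left) and Irf8 (right), each in black with the 5 genes of highest Pearson correlation over these libraries in colour, where lines only join the values of a gene. The Irf8 panel peaks in both KLS- libraries, and the Irf7 panel peaks in ST-HSC, where Irf7 reached 19.5 RPKM.

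Irf4, the close relative of Irf8 that acts in lymphocytes and dendritic cells, was scarcely present. Its locus is chr13:30841095-30858796 on the plus strand. It was at 0.300, 0.590 and 0.375 RPKM in LT-HSC 1, LT-HSC 2 and ST-HSC, at 0.103, 0.141 and 0.412 RPKM in LT-CML 1, LT-CML 2 and ST-CML, and at 0.0105 and 0.0479 RPKM in normal and CML KLS- cells. The KLS- libraries were the lowest, and both LT-CML libraries were below both LT-HSC libraries while ST-CML was slightly above ST-HSC. The share of all genes with this order in LT cells was not counted. The estimated reads were 1 and 4 in the KLS- libraries and 10 to 66 in the others, so no fold of KLS- against stem cells is given. The KLS- difference was -0.37 (SE 0.13, limma adjusted p = 0.0437) on the log2(RPKM + 1) scale. Leaving out LT-HSC 1, LT-CML 2, ST-CML or either KLS- library ended this call, with limma adjusted p-values of 0.0538 to 0.362.

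In the contrast of KLS- with stem cells, 48.7% of the 12561 genes passed an adjusted p of 0.05 in limma, and 6 of the 8 members did, with Irf8 higher and Irf1, Irf2, Irf4, Irf7 and Irf9 lower. Both KLS- libraries were above all 6 stem cell libraries for 21.9% of genes and, among members, for Irf8. Both were below all 6 for 27.7% of genes and, among members, for Irf1, Irf2 and Irf4. The median difference over the members was -0.76 against -0.08 over all genes tested.

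Irf1, an activator induced by type II interferon, was at 71.6, 68.3 and 71.4 RPKM in LT-HSC 1, LT-HSC 2 and ST-HSC and at 18.4 RPKM in normal KLS- cells. It was at 37.8, 41.0 and 57.4 RPKM in LT-CML 1, LT-CML 2 and ST-CML and at 20.8 RPKM in CML-KLS- cells. The normal HSC libraries lay close together at the top, the CML stem cell libraries lay below all of them, and the KLS- libraries were lowest in both conditions. The gene lies at chr11:53583516-53591876 on the plus strand and has 10 exons in its longest coding transcript. KLS- cells were lower than stem cells by a log2(RPKM + 1) difference of -1.52 (SE 0.19), with a limma adjusted p of 0.000419.

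Normal HSCs averaged 70.4 ± 1.85 RPKM of Irf1 (SD, n = 3) and the CML stem cells 45.4 ± 10.5 RPKM (SD, n = 3), a ratio of 0.644. All 3 CML values were below all 3 normal values, as for 11.4% of the genes tested, and Irf1 was the only member with this order. The difference was -0.65 (SE 0.17, 95% interval -1.05 to -0.25) on the log2(RPKM + 1) scale, with a limma adjusted p of 0.136. An exact two-sided permutation test gave 0.1, the smallest p that 3 libraries against 3 allow. Without ST-CML the limma adjusted p was 0.0440 and the difference -0.82. This was the 1 call among 13 alternatives. All others gave no call, with limma adjusted p-values of 0.0501 (cell type as a covariate) to 0.368 (without LT-CML 1).

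Irf1 in LT cells alone was 39.4 ± 2.24 RPKM (SD, n = 2) in CML and 70.0 ± 2.35 RPKM (SD, n = 2) in normal mice. The difference was -0.81 (SE 0.18, 95% interval -1.22 to -0.40), with a limma adjusted p of 0.0806. The ratio of CML to normal was 0.563 in LT, 0.803 in ST and 1.13 in KLS- cells. The difference between the effect in KLS- cells and that in stem cells was 0.81 (SE 0.30, 95% interval 0.13 to 1.50), with a limma adjusted p of 0.9996. In that contrast of effects 0.0717% of genes were called, and none of the 8 members was, with Irf1 the 1 member at an unadjusted p under 0.05.

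Irf2, a repressor that competes with Irf1 for its sites, differed between cell populations but showed no difference between CML and normal cells beyond the spread. It was at 41.5, 46.8 and 49.0 RPKM in the normal HSC libraries, at 44.1, 35.2 and 51.0 RPKM in LT-CML 1, LT-CML 2 and ST-CML, and at 13.8 and 15.3 RPKM in normal and CML KLS- cells. The stem cell libraries of both conditions overlapped, and both KLS- libraries were below all of them. Irf2 is located at chr8:47825099-47932812 on the plus strand. KLS- cells were lower by a log2(RPKM + 1) difference of -1.59 (SE 0.14, limma adjusted p = 7.25e-05). CML and normal stem cells differed by -0.09 (SE 0.17, 95% interval -0.47 to 0.30), with a limma adjusted p of 0.885. Irf1 was the higher of the 2 genes in the KLS+ libraries except LT-CML 1, where Irf2 was the higher.

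Irf9, the DNA-binding subunit of the type I interferon complex, was at 35.6, 26.1 and 48.4 RPKM in LT-HSC 1, LT-HSC 2 and ST-HSC and at 21.1 RPKM in normal KLS- cells. It was at 27.3, 19.4 and 37.8 RPKM in LT-CML 1, LT-CML 2 and ST-CML and at 13.6 RPKM in CML-KLS- cells. Within each population the CML value or mean was the lower one, and the ranges of CML and normal libraries overlapped. Irf9 is located at chr14:56222408-56228867 on the plus strand and shares 123 exon bases with Rnf31 on the same strand, so reads there could have been counted to either gene. KLS- cells were lower than stem cells by a difference of -0.95 (SE 0.17, limma adjusted p = 0.00213).

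**Figure D3:**
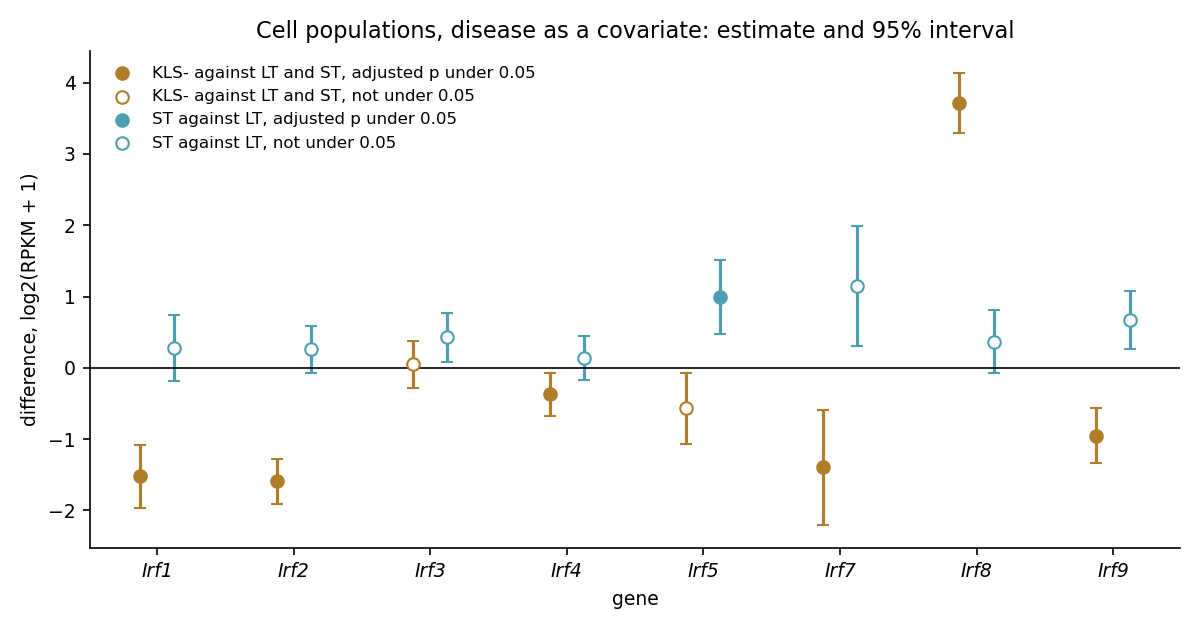
Difference of each member between cell populations on the log2(RPKM + 1) scale with its 95% interval, for KLS- against LT and ST cells (brown) and for ST against LT cells (blue), filled where the limma adjusted p was under 0.05. Irf8 stands at 3.71 for KLS- cells, and Irf1, Irf2, Irf4, Irf7 and Irf9 lie below 0.

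Irf7, the factor that amplifies type I interferon production, varied more between libraries than Irf3 or Irf9. It was at 12.5 RPKM in LT-HSC 1, 3.41 RPKM in LT-HSC 2, 19.5 RPKM in ST-HSC and 3.88 RPKM in normal KLS- cells. It was at 3.48 RPKM in LT-CML 1, 2.55 RPKM in LT-CML 2, 6.36 RPKM in ST-CML and 1.01 RPKM in CML-KLS- cells. The highest values were in LT-HSC 1 and ST-HSC, while LT-HSC 2 lay within the range of the CML stem cells. LT-HSC 2, from older mice, also had the highest sum of neutrophil genes, and neither the part of age nor that of the neutrophil genes in its Irf7 level was tested. The gene lies at chr7:148448605-148452380 on the minus strand.

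The ratio of CML to normal for Irf7 was 0.380 in LT, 0.327 in ST and 0.260 in KLS- cells. Over 3 populations with cell type as a covariate, the difference was -1.16 (SE 0.30, 95% interval -1.86 to -0.47) on the log2(RPKM + 1) scale, with a limma adjusted p of 0.0608. Leaving out LT-HSC 2 gave -1.53 with a limma adjusted p of 0.00101, and Irf7 was also called with a pseudocount of 0.1 (limma adjusted p = 0.0465) and with a mean of at least 1 RPKM (0.0494). Leaving out any other library or changing the processing in other ways gave no call, with limma adjusted p-values of 0.0539 to 0.218. In the 6 stem cell libraries the difference was -1.13 (SE 0.54), with a limma adjusted p of 0.465 and an exact permutation p of 0.3. KLS- cells were lower than stem cells by -1.40 (SE 0.36, limma adjusted p = 0.0114), a call that was lost without either KLS- library, at adjusted p-values of 0.0681 and 0.102.

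The genes that followed Irf7 most closely over the 8 libraries were Dhx58 (Pearson r = 0.969), Ifit1 (r = 0.965), Oas2 (r = 0.953), Oas3 (r = 0.947) and Usp18 (r = 0.943), among 2106 candidates. Like Irf7, each of these genes was highest in ST-HSC and next highest in LT-HSC 1, so the correlations rest mainly on these libraries. Ifit1, Oas2, Oas3 and Usp18 also stand in the list of interferon-stimulated genes given further below. Dhx58 encodes a cytoplasmic RNA sensor, Ifit1 binds viral RNA, Oas2 and Oas3 make the activator of RNase L, and Usp18 damps the interferon receptor. Ifit1 was at 11.8, 5.51 and 23.1 RPKM in LT-HSC 1, LT-HSC 2 and ST-HSC and at 2.71, 1.35 and 4.82 RPKM in LT-CML 1, LT-CML 2 and ST-CML. As for Irf7, LT-HSC 2 was the lowest of the normal stem cell libraries, and here it was above all 3 CML stem cell libraries.

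Irf3, the constitutive factor that is switched on by phosphorylation, was the most even member. It was at 5.71, 5.27 and 8.38 RPKM in the normal HSC libraries, at 6.91, 5.25 and 7.79 RPKM in LT-CML 1, LT-CML 2 and ST-CML, and at 7.53 and 6.67 RPKM in normal and CML KLS- cells. All groups overlapped, and the highest library was 1.60 times the lowest. CML and normal stem cells differed by 0.05 (SE 0.21, 95% interval -0.45 to 0.54) on the log2(RPKM + 1) scale, with a limma adjusted p of 0.956. Its locus is chr7:52253018-52258218 on the plus strand.

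Irf5, which is switched on below Toll-like receptors, was higher in ST than in LT cells. It was at 3.90, 4.97 and 8.51 RPKM in LT-HSC 1, LT-HSC 2 and ST-HSC, at 6.15, 3.75 and 12.1 RPKM in LT-CML 1, LT-CML 2 and ST-CML, and at 5.27 and 3.56 RPKM in normal and CML KLS- cells. Both ST libraries were above all 4 LT libraries, and the share of all genes with this order was not counted. ST exceeded LT cells by 0.99 (SE 0.23, limma adjusted p = 0.0431) on the log2(RPKM + 1) scale, and the call was lost without LT-HSC 1, ST-HSC, LT-CML 2 or ST-CML, at adjusted p-values of 0.0968 to 0.396. Its locus is chr6:29476625-29491869 on the plus strand. KLS- cells differed from stem cells by -0.57 (SE 0.22), with a limma adjusted p of 0.0586.

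In ST against LT cells 4.87% of genes were called, and Irf5 was the 1 member among them. All 8 members had a positive difference, with a median of 0.40 against -0.01 over all genes. Irf7 was at 1.15 (SE 0.37, limma adjusted p = 0.130) and Irf9 at 0.67 (SE 0.18, limma adjusted p = 0.0731). The intervals of Irf1, Irf2, Irf4 and Irf8 held 0.

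No member passed an adjusted p of 0.05 in the comparisons of CML with normal cells. In CML stem cells against normal HSCs limma called 2.34% of genes, in LT-CML against LT-HSC 1.73%, and over the 3 populations 6.18%. At an unadjusted p under 0.05 there were 1, 2 and 3 members in these comparisons, namely Irf1, then Irf1 and Irf4, then Irf1, Irf7 and Irf9. The exact permutation p over the 6 stem cell libraries was 0.3 to 1 for the 7 members other than Irf1. The median difference over the members was -0.19 in CML stem cells, -0.26 in LT-CML cells and -0.18 over 3 populations, against -0.04, -0.01 and -0.03 over all genes. Irf7, Irf8 and Irf9 were lower in CML in each of the 3 populations by their means, as were 28.2% of the genes tested. These comparisons share libraries.

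**Figure D4:**
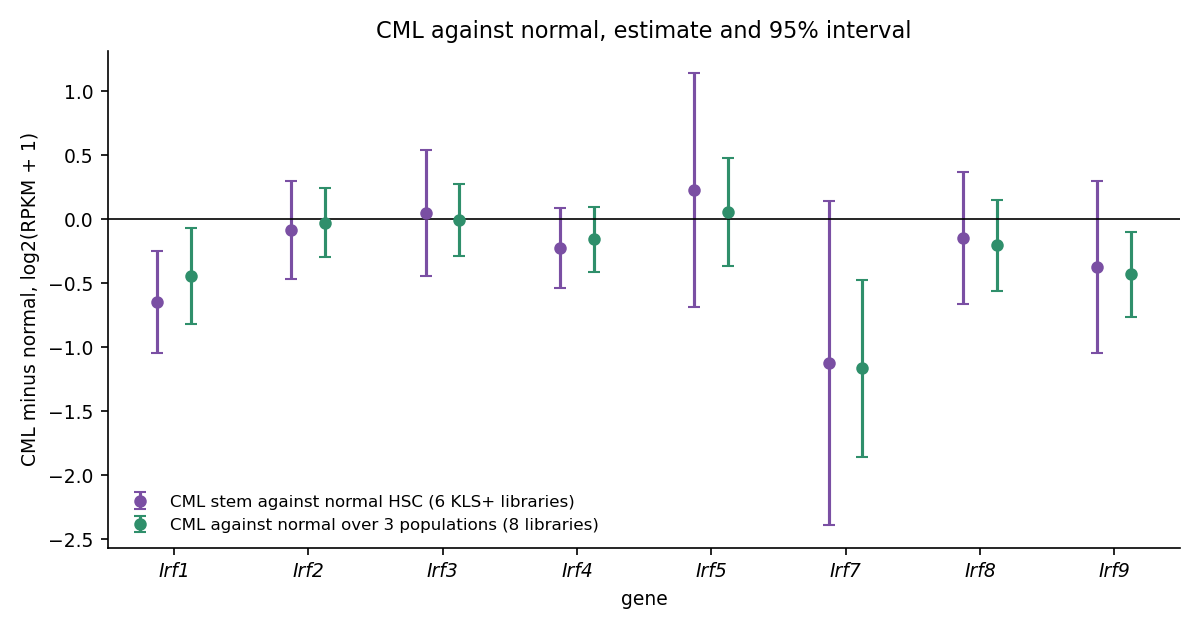
Difference between CML and normal cells for each member on the log2(RPKM + 1) scale with its 95% interval, in the 6 KLS+ libraries (purple) and over the 8 libraries with cell type as a covariate (green). The intervals of Irf1 lie below 0 in both, those of Irf7 and Irf9 lie below 0 over 3 populations, and none passed the adjusted threshold.

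Interferons themselves, the ligands that the family induces and answers, were listed at or near 0. Of 19 interferon genes in the files 1 passed the filter, Ifnk, at 0 to 0.412 RPKM, and it was called in no comparison. Ifna4, the highest of the others, reached 0.417 RPKM in ST-CML and was listed at 0 in 5 libraries. An exact 0 need not mean absence here, and reads of the near-identical Ifna genes could have been split or dropped in the counting.

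Among interferon receptors, Jak kinases, Stat factors and their inhibitors, 17 of 18 genes were tested. None was called in CML stem cells, and Usp18 fell over the 3 populations. Usp18 was at 17.9, 8.16 and 30.1 RPKM in LT-HSC 1, LT-HSC 2 and ST-HSC and at 7.83, 4.28 and 7.09 RPKM in LT-CML 1, LT-CML 2 and ST-CML. It was at 10.1 and 3.30 RPKM in normal and CML KLS- cells, and in each population the CML libraries were below the normal ones. The difference was -1.30 (SE 0.27, limma adjusted p = 0.0262), and leaving out LT-HSC 1, ST-HSC, LT-CML 2, ST-CML or either KLS- library ended the call, as did no minimum on RPKM, with limma adjusted p-values up to 0.123 over the alternatives. In KLS- against stem cells, where 48.7% of all genes were called, 2 of the 17 were higher and 5 were lower. Ifngr1 and Ifngr2, the receptor chains for type II interferon, were higher, and Jak1, Jak2, Stat3 and Socs3 were among those lower. In ST against LT cells, where 4.87% of all genes were called, Il10rb was the 1 gene called, and it was higher.

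Among the sensors, adaptors and kinases that switch on Irf3, Irf5 and Irf7, 22 of 25 genes were tested. Over 3 populations Irak4 rose and Ifih1, Zbp1 and Trim25 fell, and in CML stem cells Irak4 rose and Ifih1 and Trim25 fell. Irak4, the kinase that couples Toll-like receptors to Irf5 and Irf7, was at 7.54, 7.17, 10.5 and 13.1 RPKM in LT-HSC 1, LT-HSC 2, ST-HSC and normal KLS- cells and at 20.4, 19.2, 22.5 and 23.2 RPKM in LT-CML 1, LT-CML 2, ST-CML and CML-KLS- cells. Every CML library was above every normal library, and the share of all genes with this order was not counted. The difference was 1.11 (SE 0.12, limma adjusted p = 0.00127), and the call over 3 populations held in all 14 alternatives. The calls in CML stem cells were less stable. That of Irak4 was lost without LT-HSC 1 or LT-CML 1 (limma adjusted p up to 0.0708), that of Ifih1 with no minimum on RPKM or without any 1 library other than LT-HSC 2 (up to 0.0998), and that of Trim25 with no minimum or without any 1 of the 6 libraries (up to 0.128). Ifih1 (MDA5), a sensor of viral RNA, was at 16.3, 11.1 and 16.7 RPKM in normal HSCs and at 6.42, 5.09 and 5.16 RPKM in LT-CML 1, LT-CML 2 and ST-CML. Its difference over 3 populations was -1.16 (SE 0.16, limma adjusted p = 0.00381). Zbp1, a sensor of Z-form nucleic acids, was at -1.20 (SE 0.18, limma adjusted p = 0.00572), and Trim25, the ubiquitin ligase for RIG-I, at -0.93 (SE 0.13, limma adjusted p = 0.00377). In ST against LT cells, where 4.87% of all genes were called, 3 of the 22 were higher and none was lower. These were Tlr7, Tmem173 (STING) and Unc93b1, a chaperone of Toll-like receptors.

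Among factors that act with Irf4 or Irf8, 17 of 20 genes were tested, and among genes reported as Irf8 targets 16 of 19. Klf4, a factor of monocyte differentiation that stands in both lists, was the 1 gene called in CML stem cells and over 3 populations. It was at 11.5, 19.4, 10.8 and 10.1 RPKM in LT-HSC 1, LT-HSC 2, ST-HSC and normal KLS- cells and at 4.74, 6.33, 3.91 and 2.97 RPKM in LT-CML 1, LT-CML 2, ST-CML and CML-KLS- cells. Every CML library was below every normal library, and the share of all genes with this order was not counted. In stem cells Irf8 overlapped between the conditions. Over 3 populations the difference of Klf4 was -1.34 (SE 0.17, limma adjusted p = 0.00243). In CML stem cells it was -1.29 (limma adjusted p = 0.0466), and this call was lost with no minimum on RPKM, under both scalings and without any 1 of the 6 libraries, at adjusted p-values up to 0.172. Among the monocyte genes listed, which also hold Klf4, Cd14 was higher by 2.35 (SE 0.42, limma adjusted p = 0.0330) in CML stem cells and by 2.12 (SE 0.36, limma adjusted p = 0.00982) over 3 populations, where Ms4a6c was lower. In KLS- against stem cells, where 48.7% of all genes were called, 5 partners were higher, Sfpi1 (PU.1), Ikzf1, Cebpa, Cebpe and Gfi1, and 8 were lower, among them Runx1, Etv6 and Tcf4. Of the targets 6 were higher, among them Cybb, Gas2, Cst3, Ly86 and Csf1r, and 5 were lower, Il18, Bcl2l1, Pml, Cd74 and Ciita.

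The 28 interferon-stimulated genes listed, effectors that complexes with Irf9 switch on, were all tested. Over 3 populations, where 6.18% of all genes were called, 17 fell and none rose. All 28 differences were negative, with a median of -0.75 against -0.03 over all genes. Without 1 library the number called was 7 to 18, with the lowest number without ST-HSC or ST-CML and the highest without LT-HSC 2, and it was 8 with no minimum on RPKM. Rsad2 (viperin) was at 5.56, 7.23 and 7.55 RPKM in normal HSCs and at 1.06, 0.943 and 0.822 RPKM in LT-CML 1, LT-CML 2 and ST-CML. Bst2 (tetherin) was at 25.5, 24.2 and 25.5 RPKM in normal HSCs and at 8.89, 5.02 and 9.04 RPKM in the same CML libraries. For both genes every CML stem cell library was below every normal HSC library, as for 11.4% of the genes tested. Between CML stem cells and normal HSCs Rsad2 differed by -2.00 (SE 0.16, limma adjusted p = 0.00112) and Bst2 by -1.63 (SE 0.21, limma adjusted p = 0.00966). The call of Bst2 was lost without LT-HSC 1 (limma adjusted p = 0.0546). In CML stem cells, where 2.34% of all genes were called, 3 of the 28 were, namely Rsad2, Bst2 and Cmpk2. Irf9 had an adjusted p of 0.677 in limma there. In KLS- against stem cells, where 48.7% of all genes were called, 14 were lower and 2, Bst2 and Gbp3, were higher.

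**Figure D5:**
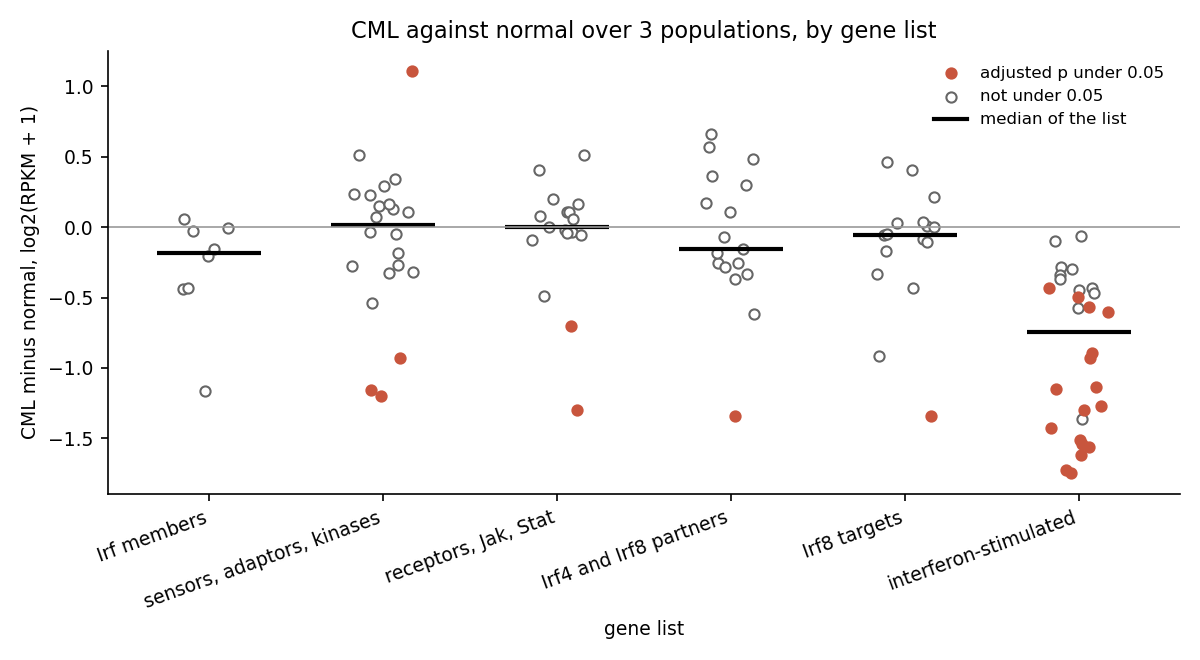
Difference between CML and normal cells over 3 populations on the log2(RPKM + 1) scale for each tested gene of 6 lists, filled red where the limma adjusted p was under 0.05, with a bar at the median of the list. The median of the interferon-stimulated genes was -0.75 and that of the Irf members -0.18, with no member filled.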

How the data were processed

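Expression was measured in 8 libraries of sorted bone marrow cells, grouped by the sample labels. Libraries were made by the authors with the SMARTer Ultra Low Input kit after oligo-dT priming, sequenced as paired ends on HiSeq2000, and mapped to mm9 with SeqNova CS. The deposited values are RPKM per gene, which the authors computed from reads, and the counting rule and annotation are not given in the sources used here. The kit does not mark strand, and Irf1, Irf3, Irf5 and Irf7 share 135, 88, 411 and 45 exon bases with antisense genes.

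RPKM were transformed to log2(RPKM + 1), and genes with a total above 1 were tested with limma 3.58.1 (R 4.3.3) with an intensity trend, Benjamini-Hochberg adjustment and a threshold of 0.05. CML stem cells against normal HSCs used the 6 KLS+ libraries without covariates, LT-CML against LT-HSC used a mean per group over all 8, and the remaining contrasts had disease and cell type as terms. Exact two-sided permutation tests compared 3 libraries with 3. Depth was estimated from RPKM steps, of which 85.7% of 4110 low genes gave one, and from the combined exon length of each gene. Read numbers of members used the length of the longest coding transcript instead, which for Irf8 is 2847 bases against 7055 combined. Read numbers are therefore estimates, and counting errors cover counting only. Alternatives were other pseudocounts, filters and scalings, no trend, cell type as a covariate, LT libraries alone, and leaving out each library. Members, lists and tests were chosen with earlier results of these data known. Of each list, genes past the threshold in a comparison of CML with normal cells were named, at most 4 by size of the difference, or otherwise the pair with the highest RPKM, and other listed genes are given by symbol only where called. Csf1r, Ccr2 and Ifit1, among the 5 genes most like a member, were given values after those were seen. Values of some listed genes are not reported here.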

Additional observations from a re-analysis of the deposited data

Results flagged for a closer look

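For Irf1 and Irf4 the values of CML against normal pointed in different directions between populations. In LT cells both CML libraries were below both normal libraries for each gene, and the share of all genes with this order was not counted. For Irf1 the log2 ratio of CML to normal was 0.176 in KLS- cells, 1 library against 1, in the opposite direction, with a 95% interval for counting error alone of 0.03 to 0.32. For Irf4 it was 0.138 in ST cells, from an estimated 36 reads against 33 (interval -0.58 to 0.86), and 2.19 in KLS- cells, from 4 reads against 1 (interval -1.15 to 7.81). Both intervals, exact binomial and for counting error alone, hold 0, so the reads set no direction for Irf4 in ST or KLS- cells. The difference of LT from ST or from KLS- cells was not tested by itself, and in limma the difference of KLS- from all stem cells had an adjusted p of 0.9996 for both genes.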

How the results depend on the processing

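Of 618 single values of members under alternatives, 562 kept their direction and their side of the threshold, 26 reversed in sign, 17 were no longer called and 13 became called. For Irf1, Irf2, Irf8 and Irf9 in KLS- against stem cells, every alternative kept the call. With no minimum on RPKM the genes called were 193 in CML stem cells, 0 in LT-CML (1765 at an unadjusted p under 0.05 in limma), 418 over 3 populations, 283 in ST against LT and 5 in the contrast of CML effects, and no member was called in ST against LT (0). With cell type as a covariate, 543 genes were called in CML stem cells. The contrast of effects called 2 genes with a pseudocount of 0.1, 1 with a mean of at least 1 RPKM and 1 with upper-quartile scaling. Over 3 populations 1 member, Irf7, was called with a pseudocount of 0.1 (adjusted p = 0.0465 in limma) and with a mean of at least 1 RPKM (1 member, adjusted p = 0.0494). Quantile normalization called 2 members in ST against LT, Irf5 and Irf9, and ended the call of Irf4 in KLS- cells (adjusted p = 0.149 in limma). That call was also lost with no minimum, upper-quartile scaling or no intensity trend (adjusted p = 0.0537 to 0.0644 in limma), and the call of Irf5 in ST against LT with no minimum (0.115) and upper-quartile scaling (0.0557). Irf4 had no value with a mean of at least 1 RPKM, which it did not reach. Irf5 in KLS- cells became called in 5 of its alternatives, with adjusted p-values from 0.0428 in limma. Irf3 reversed over 3 populations with quantile normalization (0.028) and upper-quartile scaling (0.017), and in KLS- cells with upper-quartile scaling (-0.043). The cause of these changes was not tested. Leaving out 1 library gave 115 (without LT-CML 1) to 217 (without ST-HSC) genes in CML stem cells with 0 to 1 member, the 1 being Irf1 without ST-CML, and 6 (without either LT-CML library) to 74 (without LT-HSC 1) in LT-CML, 32 without LT-HSC 2. Over 3 populations it gave 320 (without ST-HSC) to 755 (without LT-HSC 2) with 0 to 1 member, the 1 being Irf7 without LT-HSC 2. In KLS- cells it gave 3178 (without CML-KLS-) to 6338 (without LT-HSC 2) with 4 to 7 members, in ST against LT 110 (without ST-CML) to 718 with 0 to 2 members, and in the contrast of effects 0 (without LT-CML 1, 446 at an unadjusted p under 0.05 in limma) to 7. Ranges without 1 library that crossed 0 were, in CML stem cells, -0.21 to 0.054 for Irf2, -0.067 to 0.22 for Irf3 and -0.16 to 0.57 for Irf5. In LT-CML they were -0.32 to 0.0024 for Irf2, -0.053 to 0.29 for Irf3, -0.19 to 0.40 for Irf5 and -0.50 to 0.18 for Irf8. Over 3 populations they were -0.086 to 0.061 for Irf2, -0.096 to 0.047 for Irf3 and -0.081 to 0.23 for Irf5, and beyond these -0.053 to 0.15 for Irf3 in KLS- cells and -0.56 to 0.36 for Irf7 in the contrast of effects. Where a group had 1 library, it was taken to vary like the others. No paired analysis was possible because the labels give the normal libraries no replicate numbers.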

Other observations

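Irf2bp1, which encodes a binding protein of Irf2, was at 0.790 to 2.33 RPKM and was called in none of the 6 comparisons.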
